A study of Arabidopsis thaliana with 18 samples.

Results

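*Arabidopsis thaliana* rosette leaves had adapted to light exciting mainly photosystem I (PSI light). They were then given light exciting mainly photosystem II (PSII light). A set of 60 probe sets was lower at 60 min in both genotypes. As a mean over the genotypes, but not in each of them for every probe set, most of the change came after 30 min. The set was chosen by its measured values from 22746 probe sets, with the 64 array controls left out. The change in the group means from 0 to 60 min had to be at or below -0.8 on the log2 scale in the *stn7* mutant and in the wild type (WT). The change from 0 to 30 min, averaged over the genotypes, had to be less than 50% of the change at 60 min. In all, 211 probe sets met the first condition and 65 of them the second. Of 9 genes left out by name, 5 met both conditions (HAT2, WES1, AKINBETA1, AT5G62280 and AT5G02540), which left 60.

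The genotypes were *stn7*, a single insertion line (SALK_073254) that lacks a thylakoid protein kinase, and WT (Col-0). Both were sampled at 0 min, still in PSI light, and after 30 and 60 min of PSII light, with 3 arrays of biological replicates in each of the 6 groups. All plants grew for 20 days in white light (35 µE, 22 °C, 60% humidity), had 3 days of PSI light and were 23 days old. Each sample was a pool of at least 250 plants, and the p-values measure the spread between such pools. Since no plants were kept in PSI light for the same time, the new light cannot be told apart from the hour that passed.

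These kinds of light differ in which photosystem they excite more strongly, and so in how reduced the plastoquinone pool between the photosystems becomes. The STN7 kinase is activated when that pool is reduced, and it phosphorylates antenna proteins of photosystem II. PSI light is also rich in far-red wavelengths, which phytochromes read as shade. How fast a transcript level can drop depends on how fast the transcript turns over.

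Expression values are RMA values on the log2 scale as the authors deposited them, and 1 unit is a change of 2-fold. Array medians ran from 6.10 to 6.31, and arrays of 1 group correlated at 0.9896 to 0.9967. Within groups the arrays spread along a shared axis, given here as the first principal component of the deviations from the group means (28.0% of that variance). Each array's score on it was taken from the array's deviation from the mean of all 18 arrays. The scores therefore also carry differences between groups. WT replicates 1 and 3 at 0 min had scores of 43.0 and 45.7, above the other 16 arrays. Replicate 2 of that group had 9.9, further from the group's mean score. Mean scores at 0, 30 and 60 min were -2.9 ± 20.4, -15.4 ± 12.4 and 15.1 ± 15.1 in *stn7*, against 32.9 ± 20.0, -14.8 ± 7.0 and -14.9 ± 4.6 in WT (SD, n = 3). The difference between 3' and 5' control probe sets, a sign of RNA integrity, was 1.67 ± 0.05, 1.61 ± 0.05 and 1.85 ± 0.15 in *stn7*, against 1.59 ± 0.07, 1.55 ± 0.08 and 1.73 ± 0.07 in WT. The part of these differences in the results was not tested, beyond the alternatives given beside them.

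Of the 60 probe sets, 29 matched 1 gene in the probe table (48.3%, against 59.4% of all probe sets), 1 matched several genes and 30 were not listed. All 29 genes were found in the RefSeq annotation (assembly TAIR10.1). The genes with a known function included a transcription factor gene and genes linked to dormancy, low energy or leaf senescence. Others encode proteins of the cell wall and surface, signalling proteins and metabolic enzymes. They lay on all 5 nuclear chromosomes, 6 each on chromosomes 1, 2 and 3, 7 on chromosome 4 and 4 on chromosome 5. The probe sets were mostly bright. Their mean level ran from 5.17 to 12.34 with a median of 8.08, against 6.24 for all probe sets, and 53 of the 60 were above the median probe set.

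Because the rule used the changes at 30 and 60 min, these are given as a description, with limma's moderated standard error (SE) and no test. The median change from 0 to 30 min was -0.38 in *stn7* and -0.55 in WT, and from 0 to 60 min it was -1.21 in *stn7* and -1.23 in WT. Over all probe sets these medians were 0.01 and -0.01 at 30 min, and 0.01 and -0.05 at 60 min. At 60 min all 3 arrays were below all 3 arrays of 0 min for all 60 probe sets in both genotypes, as were 5.57% of all probe sets (13.5% in *stn7* and 24.3% in WT taken singly). At 30 min the same held in both genotypes for 34 of the 60 (4.95% of all probe sets), in *stn7* for 39 (10.6%) and in WT for 45 (18.7%). The 60 min arrays were all below the 30 min arrays in both genotypes for 49 of the 60 (4.12% of all probe sets), in *stn7* for 56 (16.5%) and in WT for 52 (12.2%). The comparisons with 0 min share the 0 min arrays. In leaves taken whole, fewer cells of a type and less RNA per cell cannot be told apart.

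**Figure D1:**
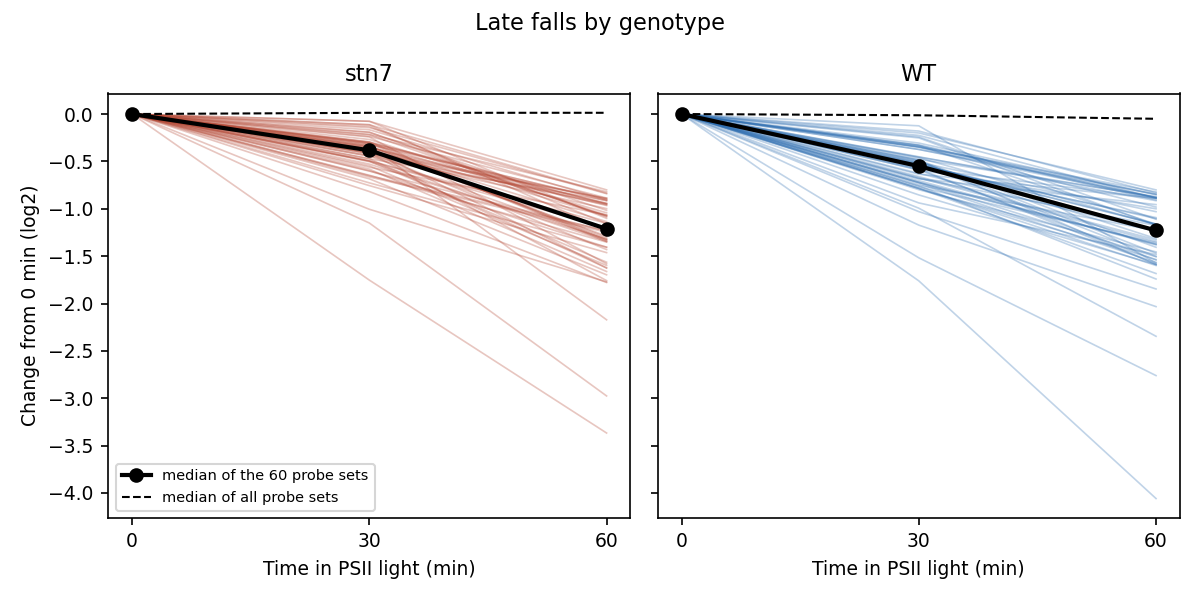
Change from 0 min (log2, vertical axis) against the time in PSII light (min, horizontal axis) for each of the 60 probe sets in *stn7* (left) and WT (right), drawn from the means of 3 arrays. The solid black line is the median of the set (-0.38 and -1.21 in *stn7*, -0.55 and -1.23 in WT at 30 and 60 min) and the dashed line the median of all probe sets, which stays near 0.

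The mean of the 60 log2 values on each array shows the same order of times in both genotypes. The rule, applied to these same arrays, largely sets this order and the gaps between the times. In *stn7* it was 8.69, 8.71 and 8.73 at 0 min, 8.15, 8.26 and 8.41 at 30 min, and 7.59, 7.43 and 7.26 at 60 min. In WT it was 9.0, 8.79 and 9.02 at 0 min, 8.56, 8.18 and 8.28 at 30 min, and 7.64, 7.52 and 7.69 at 60 min. The arrays of each time did not overlap those of the other times within a genotype. At 0 min the *stn7* arrays were all below the WT arrays, and at 30 min the genotypes overlapped.

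Only 2 probe sets were at or below -2 at 60 min in both genotypes, and neither is listed in the probe table. The first, 259417_at, was at 9.81, 10.10 and 10.25 in *stn7* at 0 min, 7.57, 8.44 and 8.88 at 30 min, and 6.94, 6.78 and 6.33 at 60 min. In WT it was at 10.24, 9.88 and 10.19, then 9.20, 7.56 and 8.26, then 6.21, 5.63 and 6.29. Its signal at 60 min was 9.69% of that at 0 min in *stn7* and 6.0% in WT, and the 3 groups of arrays did not overlap within either genotype. The second, 249065_at, was at 8.64, 8.87 and 8.19 in *stn7* at 0 min, 7.34, 7.01 and 7.90 at 30 min, and 5.99, 5.61 and 5.18 at 60 min. Its WT values were 9.17, 8.70 and 9.06, then 7.69, 7.06 and 7.63, then 6.21, 5.98 and 6.46. It changed by -2.98 ± 0.24 (SE, n = 3 arrays per group) in *stn7* and by -2.76 ± 0.24 in WT. By 60 min it was near or below the array medians in both genotypes. Group means at 60 min were below the lowest array median for 14 of the 60 in *stn7* and 11 in WT.

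Of the genes with a name, SIS (salt-induced serine-rich protein, linked to salt tolerance) had the largest 60 min change as a mean over the genotypes. Its log2 values in *stn7* were 9.28, 9.08 and 9.40 at 0 min, 8.54, 8.90 and 9.10 at 30 min, and 7.51, 7.30 and 7.67 at 60 min. In WT they were 9.76, 9.40 and 9.81, then 8.98, 8.45 and 8.57, then 7.40, 7.08 and 7.46. The 0 and 30 min arrays overlapped in *stn7* (9.08 against 9.10) but not in WT, while the 60 min arrays lay below all others in both. The change at 60 min was -1.76 ± 0.17 in *stn7* and -2.35 ± 0.17 in WT, which left 29.6% and 19.7% of the signal. The other stress-linked gene, AT4G33660, encodes a small cysteine-rich membrane protein and changed by -0.89 ± 0.09 in *stn7* and -0.87 ± 0.09 in WT.

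The transcription factor gene of the set, MYBC1, encodes a MYB-related protein that restrains freezing tolerance. It was at 7.71, 7.61 and 7.67 in *stn7* at 0 min, 7.12, 7.26 and 7.57 at 30 min, and 6.79, 6.60 and 6.39 at 60 min. In WT it was at 8.04, 7.82 and 7.95, then 7.66, 7.42 and 7.34, then 6.64, 6.79 and 6.87. No array of one time overlapped another time within a genotype, and the change at 60 min was -1.07 ± 0.13 in *stn7* and -1.17 ± 0.13 in WT. CCL (CCR-like), a clock-controlled gene known for an unstable transcript, was the brightest of the set, with a mean level of 12.34. It was at 12.56, 12.80 and 12.88 in *stn7* at 0 min, 12.35, 12.40 and 12.44 at 30 min, and 11.93, 11.76 and 11.71 at 60 min. In WT it was at 13.00, 12.92 and 13.04, then 12.57, 11.93 and 12.42, then 11.83, 11.83 and 11.78. Its 60 min change was -0.94 ± 0.13 in *stn7* and -1.18 ± 0.13 in WT, and 48.6% of the mean change was present at 30 min, close to the limit of the rule.

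Genes linked to dormancy, low energy or leaf senescence made up 3 of the 29. AT4G27450, of a family of aluminium-induced proteins, was at 9.65, 10.10 and 10.29 in *stn7* at 0 min, 9.50, 9.68 and 9.96 at 30 min, and 9.10, 8.60 and 8.34 at 60 min. The WT values were 10.84, 10.40 and 11.05, then 10.23, 9.0 and 9.53, then 8.72, 8.69 and 8.77. The 0 and 30 min arrays overlapped in *stn7*, where the 30 min change was -0.29, and did not in WT, where it was -1.17. AT1G56220, of the dormancy and auxin associated family, was at 12.59, 12.54 and 12.45 in *stn7* at 0 min, 12.21, 12.20 and 12.51 at 30 min, and 11.52, 11.49 and 11.34 at 60 min. WT leaves had 12.81, 12.69 and 12.93, then 12.65, 12.30 and 12.43, then 12.04, 11.79 and 11.97, so that at 60 min the *stn7* arrays were all below the WT arrays. AT4G04630, of a family linked to leaf senescence, was at 7.43, 7.68 and 7.57 in *stn7* at 0 min, 7.05, 6.82 and 7.07 at 30 min, and 5.74, 6.24 and 5.72 at 60 min. The WT values were 8.11, 7.78 and 8.12, then 7.33, 7.04 and 6.83, then 6.37, 6.46 and 6.73, all above the *stn7* arrays at 0 and 60 min. It changed by -1.66 ± 0.15 in *stn7* and -1.48 ± 0.15 in WT at 60 min.

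**Figure D2:**
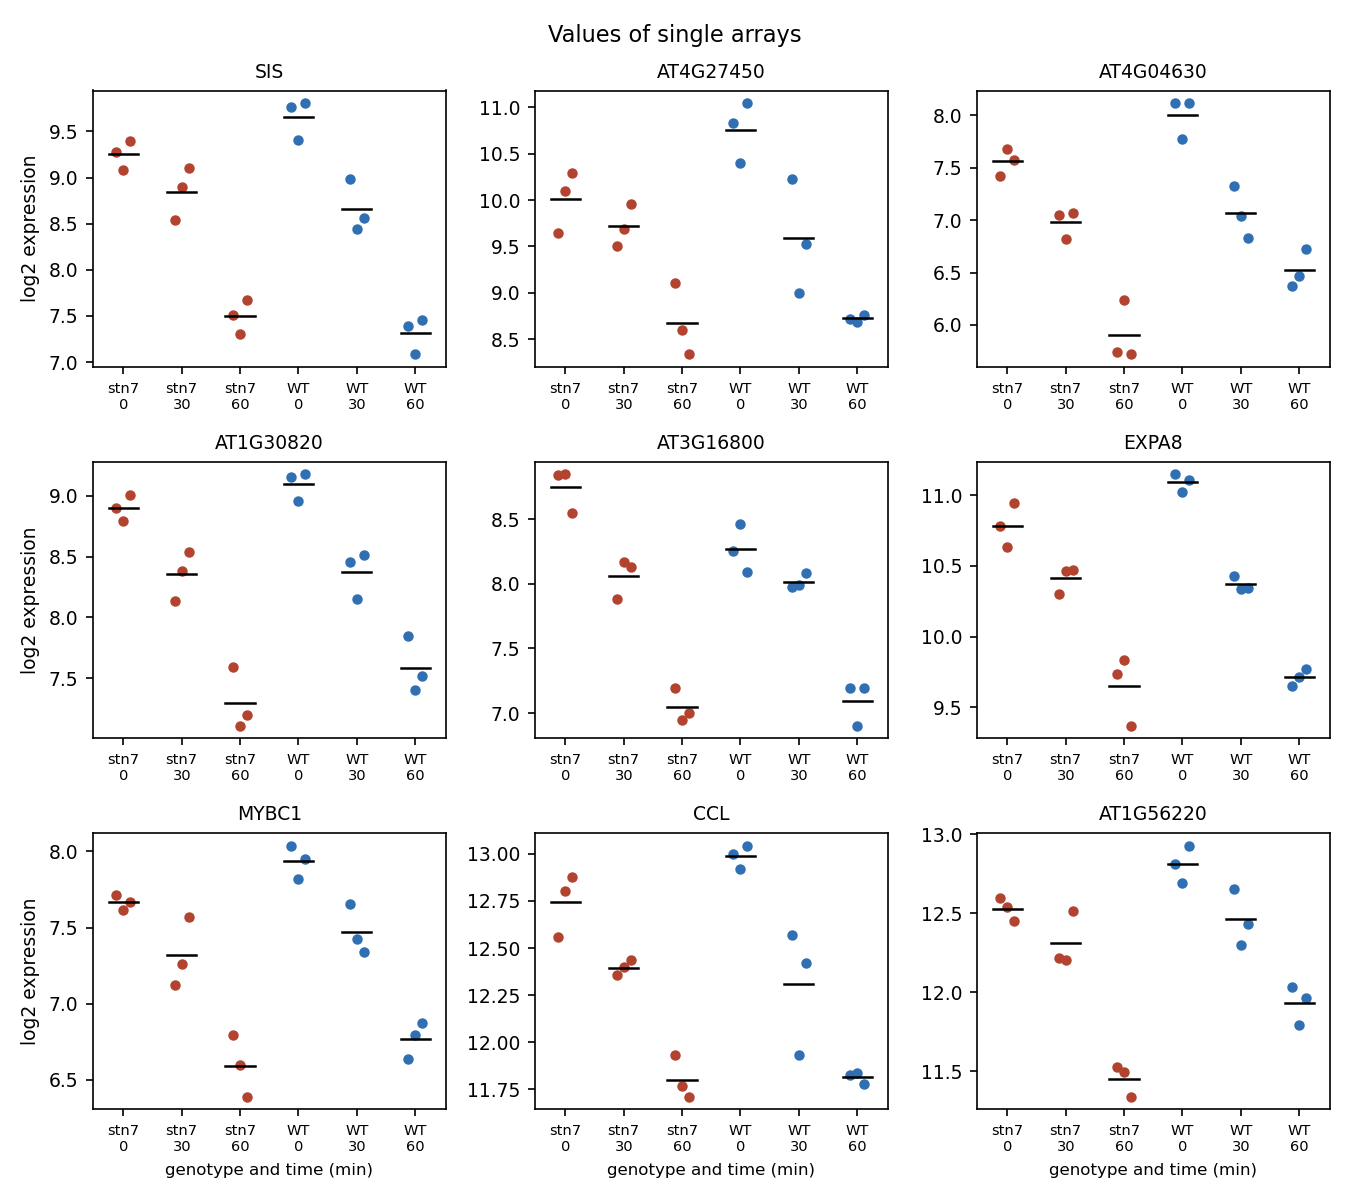
Log2 expression on each array (vertical axis) of 9 named genes of the set, by genotype and time (horizontal axis, *stn7* left of WT, each at 0, 30 and 60 min). Points are single arrays and bars are means of 3 arrays. In each panel the 60 min arrays lie below the 0 min arrays, while the 30 min arrays of SIS, AT4G27450 and AT1G56220 in *stn7* overlap those of 0 min.

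Genes of the cell wall and cell surface made up 5. EXPA8 encodes an alpha-expansin, a protein that loosens the wall of growing cells. In *stn7* it was at 10.78, 10.63 and 10.94 at 0 min, 10.30, 10.46 and 10.47 at 30 min, and 9.74, 9.84 and 9.37 at 60 min. For WT the arrays gave 11.15, 11.02 and 11.11, then 10.43, 10.34 and 10.34, then 9.65, 9.72 and 9.77. The times did not overlap, and the 60 min change was -1.14 ± 0.11 in *stn7* and -1.38 ± 0.11 in WT. AT1G14890, of the pectin methylesterase inhibitor family, was at 8.91, 8.61 and 8.95 in *stn7* at 0 min, 8.50, 8.50 and 8.88 at 30 min, and 8.08, 7.77 and 7.57 at 60 min. Its WT arrays were at 9.14, 9.0 and 9.29, then 8.76, 8.68 and 8.40, then 7.94, 8.11 and 7.90. The early times overlapped in *stn7* and not in WT. It changed by -1.02 ± 0.14 in *stn7* and -1.16 ± 0.14 in WT. AT3G53950, related to glyoxal oxidases, changed by -0.82 ± 0.14 and -1.0 ± 0.14. AT3G52060 and AT4G32290 encode glycosyltransferases of the same family, and they changed by -1.0 ± 0.12 and -0.89 ± 0.13 in *stn7*, against -0.88 ± 0.12 and -0.88 ± 0.13 in WT.

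Among 3 signalling genes, AT3G16800, which encodes a protein phosphatase of the PP2C family, had the larger 60 min change in *stn7*. It was at 8.84, 8.85 and 8.55 in *stn7* at 0 min, 7.88, 8.17 and 8.13 at 30 min, and 7.20, 6.95 and 7.0 at 60 min. In WT it was at 8.26, 8.46 and 8.09, then 7.98, 7.99 and 8.09, then 7.19, 6.90 and 7.19. The genotypes differed most at 0 min, where the lowest *stn7* array lay above the highest WT array, and they overlapped at 30 and 60 min. The signal left at 60 min was 30.8% in *stn7* and 44.4% in WT. AT4G01330, a protein kinase gene, and AT2G18670, which encodes a RING-finger protein, changed by -1.04 ± 0.15 and -0.84 ± 0.16 in *stn7*, against -1.09 ± 0.15 and -0.89 ± 0.16 in WT.

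Of 3 metabolic genes, AT1G30820 encodes a CTP synthase, which makes the cytidine nucleotide used for RNA and phospholipids. In *stn7* it was at 8.90, 8.79 and 9.01 at 0 min, 8.14, 8.38 and 8.54 at 30 min, and 7.59, 7.11 and 7.20 at 60 min. WT leaves had 9.15, 8.96 and 9.18, then 8.46, 8.15 and 8.51, then 7.84, 7.40 and 7.52. The times did not overlap in either genotype, and the signal left at 60 min was 33.0% in *stn7* and 35.2% in WT. AT4G19860, a phospholipase A gene, changed by -0.96 ± 0.15 in *stn7* and -0.85 ± 0.15 in WT, and AT2G45600, of the alpha/beta-hydrolase family, by -0.80 ± 0.15 and -0.89 ± 0.15.

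For the other 11 named genes no role is given here. Their 60 min changes ran from -1.77 to -0.84 in *stn7* and from -1.58 to -0.82 in WT. AT4G16000 was at 7.71, 7.42 and 7.39 in *stn7* at 0 min, 6.13, 6.69 and 6.69 at 30 min, and 5.83, 5.71 and 5.67 at 60 min. Its WT values were 7.65, 7.17 and 7.52, then 7.02, 6.58 and 6.96, then 5.73, 5.93 and 6.05. In both genotypes its arrays fell into 3 separate ranges, and with 56.7% of its change at 30 min in *stn7*, the largest share of the set there, it was among the 8 members at or above 50% in that genotype. AT4G16000 (-1.77 ± 0.16 in *stn7*, -1.54 ± 0.16 in WT), AT5G02550 (-1.41 ± 0.14 and -1.58 ± 0.14), AT5G45310 (-1.35 ± 0.20 and -1.57 ± 0.20) and AT2G15830 (-1.62 ± 0.14 and -1.23 ± 0.14) had the largest mean changes of the 11. AT1G15740, which encodes a leucine-rich repeat protein, changed by -1.32 ± 0.12 in *stn7* and -1.36 ± 0.12 in WT. The other 6, AT3G03870, AT1G49500, AT2G21820, AT5G23380, AT3G26890 and AT1G23050, changed by -0.97 to -0.84 in *stn7* and -1.03 to -0.82 in WT. The 31 probe sets without a single gene name had median 60 min changes of -1.29 in *stn7* and -1.37 in WT, against -1.02 and -1.09 for the 29 named genes. Apart from the pair described above their 60 min changes ran from -2.17 to -0.91 in *stn7* and from -1.85 to -0.80 in WT.

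The share of the 60 min change already present at 30 min ran from 11.6% to just under 50% as a mean over the genotypes, with a median of 42.9%. It was lowest for 251017_at, an unlisted probe set, which was at 10.15 to 10.32 in *stn7* and 10.18 to 10.38 in WT at 30 min. The 0 min arrays, at 10.30 to 10.59 in *stn7* and 10.30 to 10.55 in WT, overlapped those of 30 min. At 60 min it was at 8.66 to 9.15 in *stn7* and 8.72 to 8.95 in WT, with a change from 0 min of -1.58 ± 0.12 and -1.57 ± 0.12. Next came 266072_at (17.4%) and, as the first named gene, AT2G45600 (23.9%). Taken within each genotype, the median share was 32.7% in *stn7* and 46.3% in WT, and it was lower in *stn7* for 44 of the 60. The share reached 50% or more in *stn7* for 8 probe sets and in WT for 21. These shares use changes that enter the rule. In WT they rest on the 0 min arrays that include replicates 1 and 3, with high axis scores. The genotype difference in share was not tested. The share was 13.6% in *stn7* and 71.3% in WT for AT2G18670, and 40.3% in *stn7* and 21.5% in WT for AT3G16800.

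**Figure D3:**
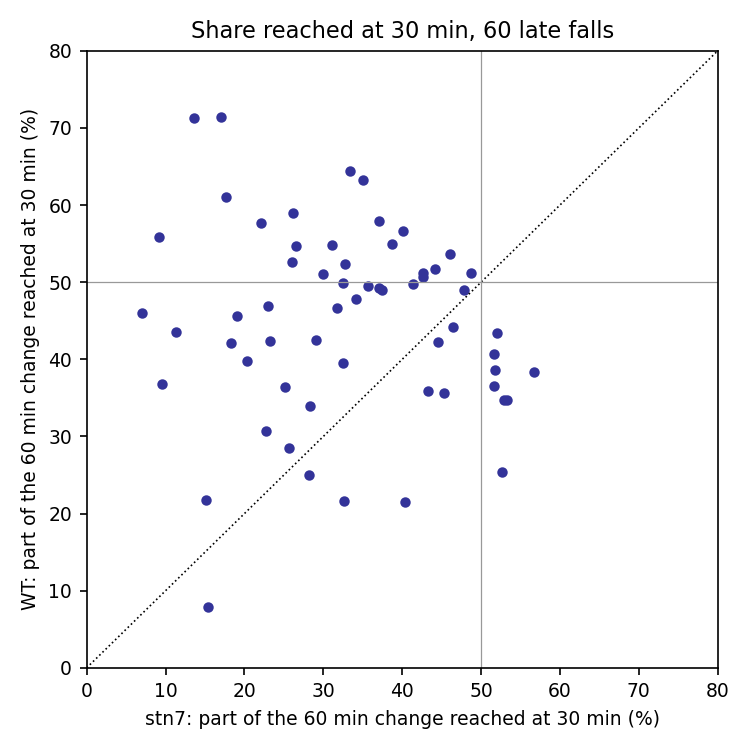
Share of the 60 min change present at 30 min (%) in *stn7* (horizontal axis) against WT (vertical axis), 1 point for each of the 60 probe sets, from means of 3 arrays. The dotted line marks equal shares and the grey lines mark 50%. Of the points, 44 lie above the dotted line, and 21 are at or above 50% in WT against 8 in *stn7*. The difference between the genotypes was not tested.

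The limits of the rule cut through a continuous range. On the side of the 60 min change, AT2G45600 (-0.80 in *stn7*, -0.89 in WT) and AT3G53950 (-0.82 and -1.0) were just inside, and MCCA, which encodes a subunit of a mitochondrial carboxylase of leucine breakdown, was just outside (-0.94 and -0.78). On the side of the share, CCL (48.6%) was just inside and AT1G03610 (50.2%) just outside. With each array left out in turn, 28 of the 60 met the rule in all 18 cases, 12 of them named genes. These were SIS, AT1G30820, AT5G02550, AT5G45310, AT3G16800, AT2G15830, EXPA8, MYBC1, AT1G14890, AT4G01330, AT1G56220 and AT3G52060. Leaving out both WT 0 min arrays with high axis scores left only replicate 2 in that group, so the rule then rests on 1 array there. Of the 12 named genes, AT1G56220 then no longer met the rule. With the 3' to 5' difference as a covariate, AT1G30820 and AT3G52060 of these 12 no longer met the rule, and other members were lost as well.

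**Figure D4:**
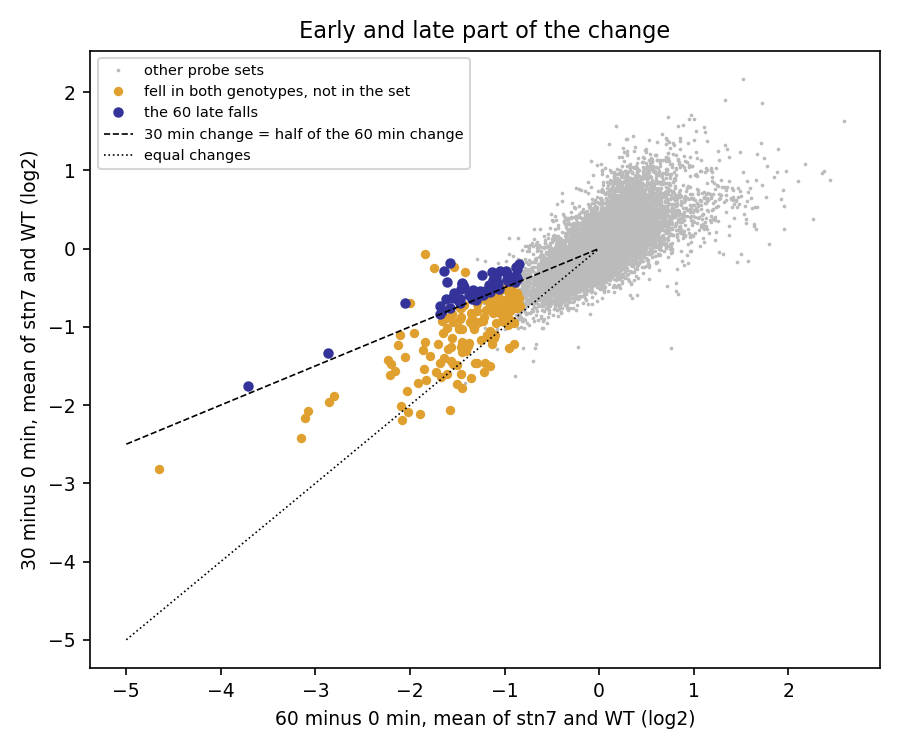
Change from 0 to 30 min (vertical axis) against the change from 0 to 60 min (horizontal axis), both as means of *stn7* and WT on the log2 scale, 1 point for each of 22746 probe sets. The 60 late falls lie between the dashed line (50% of the 60 min change) and no change at 30 min, next to the probe sets that were lower in both genotypes but outside the rule, or were left out by name.

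The genotypes were compared on measures that the rule did not use. The mean of *stn7* minus WT over the 3 times, and *stn7* minus WT at 30 min, have no covariance with the changes in the rule as long as the arrays vary alike. By limma's array weights, which are lower for more variable arrays, they did not. The weights ran from 0.53 (WT 0 min replicate 2) to 1.74 (WT 0 min replicate 1). How far the choice by the rule enters these comparisons was not tested. Over the 3 times, 17 of the 60 probe sets were lower in *stn7* and 1 was higher at an adjusted p under 0.05 (limma). Of all probe sets 3.76% were called lower and 6.32% higher. The median difference of the 60 was -0.15, against -0.01 for all probe sets, and 50 of the 60 estimates were below 0 (52.2% of all probe sets).

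The 8 unlisted probe sets called lower included the largest difference of the set, 245108_at (-0.62 ± 0.12, adjusted p = 0.00289).

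The lower level in *stn7* was not particular to the late falls. Among the 146 probe sets that were at or below -0.8 at 60 min in both genotypes but had at least 50% of the change at 30 min, 47 were called lower and 2 higher, with a median of -0.20. Among the 11373 probe sets brighter than the median probe set, 3.83% were called lower. The count of called probe sets among the 60 depends on the setting. With the 3' to 5' difference as a covariate 7 were called. For the 18 called probe sets the median size of the difference was then 0.33, against 0.38 with all arrays and no covariate. The median SE was 0.10, against 0.09. Leaving out both WT 0 min arrays with high axis scores left only replicate 2 in that group, and the median size of the difference was 0.32. All 18 kept their sign in both cases. With the axis itself as a covariate 23 were called, among them all 18.

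Of the 17 lower probe sets, 9 carried 1 gene name. AT2G15830 had the largest named difference (-0.52 ± 0.08, adjusted p = 0.000877), with 9 of 9 *stn7* arrays below the WT mean of the same time. At 0, 30 and 60 min it was at 8.27 ± 0.18, 7.80 ± 0.10 and 6.64 ± 0.26 (SD, n = 3) in *stn7*, against 8.67 ± 0.13, 8.15 ± 0.12 and 7.44 ± 0.24 in WT, with no overlap between the genotypes at any time. AT1G56220 was lower in *stn7* by a difference of -0.30 ± 0.06 (adjusted p = 0.00689, 8 of 9 arrays), as was AT4G04630 (-0.38 ± 0.09, adjusted p = 0.0115, 8 of 9 arrays). The glycosyltransferase gene AT3G52060 (-0.28 ± 0.07, adjusted p = 0.0118), AT3G03870 (-0.37 ± 0.09, adjusted p = 0.0146) and AT1G49500 (-0.30 ± 0.08, adjusted p = 0.0190) were lower in 9 of 9 arrays each. Of these, only AT2G15830 passed under every alternative tried.

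The remaining named calls were weaker. AT4G33660 (-0.19 ± 0.05, adjusted p = 0.0323), AT5G23380 (-0.21 ± 0.06, adjusted p = 0.0383) and AT5G45310 (-0.38 ± 0.12, adjusted p = 0.0411) lost the call without single arrays, in 9, 11 and 11 of the 18 cases. The kinase gene AT4G01330 was the exception in direction, higher in *stn7* by 0.33 ± 0.08 (adjusted p = 0.0188). It was at 8.71 ± 0.14, 8.39 ± 0.18 and 7.66 ± 0.07 at 0, 30 and 60 min in *stn7*, against 8.47 ± 0.17, 7.92 ± 0.19 and 7.38 ± 0.32 in WT, above the WT mean of the same time in 9 of 9 arrays. Its call held without each single array but was lost with the 3' to 5' covariate (0.34, adjusted p = 0.0627, limma). The difference was 0.32 without both WT arrays with high axis scores. It was 0.33 without the 5 arrays of weight under 0.7 in limma's array weights. Each of these 2 fits left 1 array in at least 1 group. AT4G19860 was just past the limit (-0.28 ± 0.09, adjusted p = 0.0504). For SIS, EXPA8 and CCL the intervals included 0. SIS differed by -0.01 (95% interval -0.22 to 0.19), EXPA8 by -0.11 (-0.25 to 0.02) and CCL by -0.06 (-0.21 to 0.10).

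**Figure D5:**
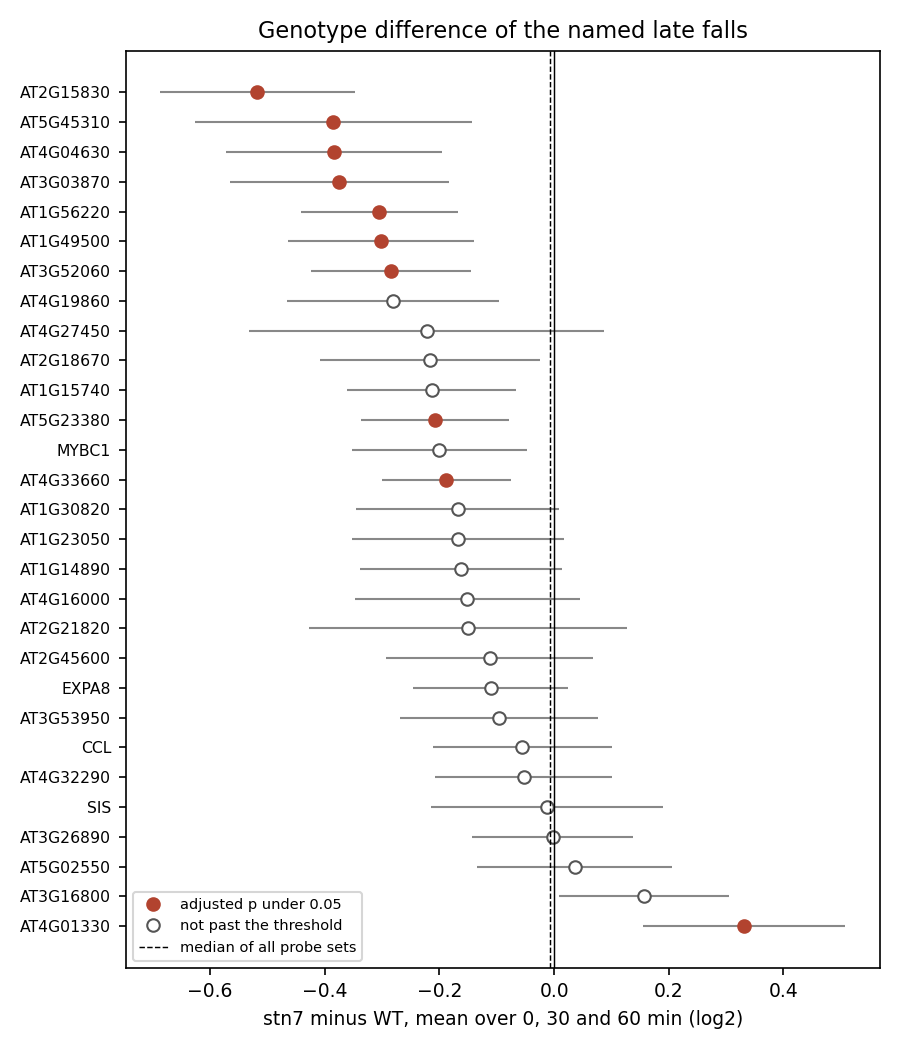
*stn7* minus WT as the mean over 0, 30 and 60 min (log2, horizontal axis) for the 29 named genes, with 95% intervals from limma over 18 arrays. Filled points are past an adjusted p of 0.05, 9 of them below 0 and 1, AT4G01330, above 0, and the dashed line is the median of all probe sets (-0.01).

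At 30 min alone, 0 of the 60 probe sets were called between the genotypes by limma, against 1.78% of all probe sets. At an unadjusted p under 0.05 there were 10 (16.7%, against 15.7% of all probe sets), and the smallest adjusted p was 0.0727. Alternative settings called 0 to 2 of them. The median difference was -0.02, and 35 of 60 estimates were below 0 (51.7% of all probe sets).

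At 0 min 49 of the 60 estimates of *stn7* minus WT were below 0 (58% of all probe sets), with a median of -0.23, and at 60 min 48 were (46.1%), with a median of -0.19. These differences enter the changes of the rule and have no test here.

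The size of the 60 min change in the genotypes is described without a test, since the rule used it. The difference between the changes (*stn7* minus WT) had a median of 0.05 and ran from -1.06 to 0.70, against a median of 0.08 over all probe sets. In 51 of the 60 it was smaller than 0.5 in either direction. The larger change was in *stn7* for 26 and in WT for 34, that is, the difference was above 0 in 34 (59.9% of all probe sets). For 3 the *stn7* change was larger by at least 0.5, and these were 266072_at, 257766_at (-1.46 and -0.85) and AT3G16800. The unlisted 266072_at (-2.17 in *stn7*, -1.11 in WT) was at 8.96, 8.70 and 8.43 in *stn7* at 0 min, 7.96, 8.35 and 8.78 at 30 min, and 6.53, 6.25 and 6.78 at 60 min. For WT the values were 8.27, 8.45 and 8.44, then 8.38, 7.89 and 8.17, then 7.40, 7.07 and 7.36, so that the genotypes were apart at 60 min and overlapped at 0 and 30 min. For 6 the WT change was larger by at least 0.5, with AT4G27450 and SIS as the named genes among them.

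Within a window of 5 genes, some members lay beside other genes that were lower at 60 min in both genotypes. How often this holds over all genes is not given here, so these pairs are a description only. AT5G02550 was next to AT5G02540, which had been left out by name (-1.76 in *stn7* and -2.24 in WT at 60 min), and AT5G02580, with 2 protein-coding genes between and also left out by name, changed by -2.72 and -3.44. AT4G32290 had 1 protein-coding gene between it and IAA29, an auxin-responsive repressor gene (-4.82 in *stn7*, -4.48 in WT). The neighbour of AT4G33660, AT4G33666, had its whole change by 30 min (-2.10 in *stn7* and -2.14 in WT, then -1.71 and -2.07 at 60 min). AT3G52060 was next to AT3G52070, which was at -1.23 and -1.18 at 30 min and -1.28 and -1.48 at 60 min.

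Lists of 113 genes of auxin response, shade avoidance, low energy, wall growth, light and clock regulation and growth hormone metabolism had 16 genes with a named probe set. Here a measured gene is one with such a probe set. The others may have a probe set without a single gene name, since 8730 of all probe sets were not listed. EXPA8 was the one late fall among them, and IAA29, WES1, HAT2 and AKINBETA1 had been left out by name. In the wall list, of 17 genes with 5 measured, 2 fell and 3 rose in *stn7* at 60 min (adjusted p under 0.05, limma), and 2 fell and 1 rose in WT (of all probe sets 7.72% fell and 8.85% rose in *stn7*, and 16.5% fell and 16.2% rose in WT). In each genotype EXPA8 was 1 of the 2 that fell. The rule chose EXPA8 by that fall, so its call is no test. The other was EXPA4, another alpha-expansin gene, which fell by 0.50 ± 0.12 in *stn7* and by 0.99 ± 0.12 in WT. The xyloglucan-modifying enzyme gene XTH18 rose by 0.94 ± 0.17 in *stn7* and 1.52 ± 0.17 in WT. Of the other lists, 2 of 3 measured GH3 genes fell in each genotype, as did the 1 measured SAUR gene. Of 2 measured shade genes 1 fell in *stn7* and 2 in WT, of 2 low-energy genes 1 fell in each genotype and 1 rose in *stn7*, and of 2 light and clock genes 2 rose in *stn7* and 1 in WT. These falls include WES1 among the GH3 genes, HAT2 among the shade genes and AKINBETA1 among the low-energy genes. Each met the values of the rule by its fall and was only left out by name, so its call is no test either. The only Aux/IAA gene with a named probe set was IAA29, and no gibberellin or brassinosteroid gene had one. GH3.3, which conjugates auxin, fell by 0.97 ± 0.15 in *stn7* and by 0.85 ± 0.15 in WT, and the auxin-responsive SAUR10 by 0.60 and 1.36. HYH, a bZIP regulator of light responses, rose by 0.82 in *stn7* and 0.83 in WT.

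Of 17 markers of leaf cell types, root and flower, 2 had a named probe set, so the labelled tissue was not checked further here. The guard cell genes FAMA and GC1 changed by 0.04 and 0.50 in *stn7* and by -0.12 and 0.33 in WT at 60 min, with none past the threshold. At 30 min GC1 fell by 0.73 ± 0.17 in *stn7* (adjusted p = 0.0153, limma) and changed by -0.02 ± 0.17 in WT. FAMA was higher in *stn7* than in WT over the 3 times (0.38 ± 0.07, adjusted p = 0.0030) and at 30 min (0.59 ± 0.12, adjusted p = 0.0222), while GC1 differed by -0.01 ± 0.10 and -0.54 ± 0.17 (adjusted p = 0.977 and 0.122). The part of guard cells in the genotype differences of the late falls was not tested.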

How the data were processed

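The authors deposited log2 values per probe set from 18 one-colour Affymetrix arrays; per the submitters' processing notes, GCOS, Affymetrix Expression Console 1.1 and RMA were used, but the notes do not give their settings. No further scaling or filter was applied. The number of arrays limits the precision.

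For 22746 probe sets, a model of 6 group means was fitted with limma 3.58.1 (lmFit, contrasts.fit, eBayes; 17.8 degrees of freedom) in R 4.3.3. Tests were two-sided, with Benjamini-Hochberg adjustment over all probe sets. Tables were read with Python 3.11.15 and pandas 2.3.3, and plots drawn with matplotlib 3.10.9. The fit was also run on simulated data, with noise independent between probe sets and alike across arrays. These data held no shared axis and no unequal arrays, so nothing about the real arrays is drawn from that run. The members, gene lists and tests were chosen with earlier results of these data known. All members with 1 gene could be named, and for list genes those past the threshold. Grouping by role was made after the members were known. Probe names come from GEO's platform annotation, matched to RefSeq by gene ID. Promoter motifs, planned at the start, were not analysed here. The replicate numbers were not shown to pair arrays.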

Additional observations from a re-analysis of the deposited data

How the results depend on the processing

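The number of probe sets that met the rule was 60, and it was 52 to 89 under other normalizations, weights, the replicate block and covariates. It was 36 with a limit of 1 in place of 0.8, 110 with 0.6, 15 with the 30 min share below 33.3%, and 31 with 50% required in each genotype on its own. Leaving out single arrays gave 40 (without WT 30 min replicate 1) to 82 (without *stn7* 60 min replicate 1). Median centring, which moved WT changes at 60 min by -0.12, left 45 of the 60. The 3' to 5' difference was highest at 60 min in both genotypes. With it as a covariate, many named members no longer met the rule. These were AT1G30820, AT1G15740, AT3G03870, AT3G52060, AT1G49500, AT4G19860, AT4G32290, AT4G33660, AT5G23380, AT3G26890, AT1G23050 and AT2G18670. Unlisted members were lost too, among them 249065_at, 1 of the 2 at or below -2 at 60 min in both genotypes. The other of these, 259417_at, still met the rule. SIS, MYBC1, EXPA8 and CCL were among those that still did. Over the 3 times, 18 of the 60 were called between the genotypes. With the 3' to 5' difference as a covariate the count was 7, with 6 of them among the 18. It was 6 without both WT arrays with axis scores over 40 and 9 without the 5 arrays of weight under 0.7. The last 2 alternatives were chosen after seeing the data. Without single arrays the count was 14 to 21. At 30 min the count of 0 became 1 with array weights, 2 with the axis as a covariate and 1 in a fit of the groups compared. It was 0 to 1 without single arrays. With the replicate number as a block 60 met the rule, 18 were called over the 3 times and 0 at 30 min. Residuals of arrays with the same number correlated from -0.41 to 0.33 over 45 pairs, 13 of them above 0.1, so the numbers were not taken to pair arrays. No called gene changed its sign under these settings.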
